A study of Rattus norvegicus with 48 samples.

Results

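Immediate early genes are switched on within minutes of a stimulus from pre-existing signalling and transcription factors, without the need for new protein, and their mRNAs are short-lived. In the liver they are known to respond to injury, growth stimuli and partial hepatectomy, and also to the handling of the animal and the tissue. Most of the classical members encode transcription factors, which in turn regulate slower sets of genes.

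The 5 genes described here are Fos (ENSRNOG00000008015), Jun (ENSRNOG00000026293), Egr1 (ENSRNOG00000019422), Atf3 (ENSRNOG00000003745) and Myc (ENSRNOG00000004500). They were picked by identifier out of 32662 genes in the count and RPKM tables, and their names come from this choice, because the tables list identifiers alone. All 5 passed the filter on low counts, which kept 12756 genes that reached 1 CPM (counts scaled to library size) in 5 or more animals of any group.

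Liver RNA came from 48 male Wistar rats in 6 groups of 8, kept for 4, 8 or 12 weeks on either of 2 diets. CDAA is a diet of defined L-amino acids that lacks choline, here with 1% cholesterol, and CSAA is the control diet with choline. Per the labels and the study's methods, CSAA also has a smaller share of energy from fat and a larger one from carbohydrate, and no cholesterol is given for it, so these parts of the diet cannot be told apart. The rats were bought at 6 weeks of age, and no genetic change is given for any group. CDAA feeding is used as a diet model of steatohepatitis and fibrosis. Polyadenylated RNA of a liver piece was sequenced from each animal, so fewer cells of a type and less RNA per cell cannot be told apart in any value given here. Whether each library carried the defining markers of liver was not analysed, since no table used here pairs the identifiers with names, and other genes of the same pathways were not counted for the same reason. Rats were housed in pairs, but cages, sequencing pools and the time of day and interval at tissue collection were not given in the sources used here, and their part in the values was not tested.

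The reads on genes lay between 13619274 and 22284359 for each animal. The TMM factor, which scales each library to the bulk of its genes, averaged between 0.777 and 0.848 in the CSAA groups and between 1.08 and 1.37 in the CDAA groups. The scaling therefore bears on every comparison of the diets. Libraries of animals 303, 504, 908 and 1102 lay apart from their groups in an earlier analysis of these data, and the libraries of 1105, 1106, 1107 and 1108 were more alike than others, with a chi-square per gene of 3.44 to 9.85 for their 6 pairs and 11.5 to 209 for the other 162 pairs within a group. All pairs differed by more than sampling noise would give, at about 1 per gene. Some results are also given without 303, 504, 908 and 1102, or without 1106, 1107 and 1108.

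The promoter of Egr1 is shown because binding sites for the serum response factor, called CArG boxes, are the known entry point for rapid induction of this gene. The sequence covers the 250 bases before the gene start at chr18:26736828-26737077 of the RefSeq assembly GRCr8, on the plus strand, with the CArG boxes in capitals. The read counts were made on the older build Rnor_6.0.

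Egr1 promoter: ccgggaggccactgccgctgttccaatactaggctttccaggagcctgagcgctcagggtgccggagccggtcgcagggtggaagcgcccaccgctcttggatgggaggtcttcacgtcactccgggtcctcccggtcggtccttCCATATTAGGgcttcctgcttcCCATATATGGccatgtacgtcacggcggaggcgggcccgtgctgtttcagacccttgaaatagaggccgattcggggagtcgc

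The 2 CArG boxes begin 105 and 83 bases before the gene start. Of 33469 rat promoters in the same RefSeq set, 1.50% held at least 1 CArG box, and 7 promoters (0.0209%) held 2, the highest number found. The cAMP response element TGACGTCA (in 1.59% of the promoters), its variant TGACGCAA (0.436%), the AP-1 site TGACTCA (4.05%, which on the opposite strand reads TGAGTCA), the E-box CACGTG (5.59%) and the letters TATAAA (12.9%) were searched on both strands and were not in the Egr1 window. Shorter forms of these sites, such as parts of the cAMP response element, were not searched, so their absence is not shown. Promoters of Fos, Jun, Atf3 and Myc were not analysed here.

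Levels are compared between genes as RPKM, which is scaled to gene length. Jun had the highest mean level over the 48 livers, at an RPKM of 29.0 ± 8.83 (SD, n = 48) and rank 2077 of the 12756 tested genes. Atf3 followed at 21.2 ± 17.3, Egr1 at 20.6 ± 11.9 and Myc at 18.4 ± 11.1 (RPKM, SD, n = 48). Fos was the lowest at an RPKM of 3.24 ± 2.54 and rank 8302, so that 4 members lay in the upper part of the expressed genes and Fos below the middle.

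In the diet comparisons, Atf3 and Myc were called higher on CDAA at week 4. No member was called changed at week 8, and Myc alone was called higher at week 12. Genes were called changed when edgeR's quasi-likelihood test gave an adjusted p below 0.01 and a log2 fold change of 1 or more in either direction. At week 4, 2 of 5 members passed, against 19.9% of all tested genes. At week 8 it was 0 of 5 against 30.2%, and at week 12 it was 1 of 5 against 30.7%. With 5 genes these shares are counts and no comparison with the background. The median log2 fold change of the 5 members was 0.63, -0.24 and -0.61 at weeks 4, 8 and 12, while that of all tested genes was -0.02, 0.05 and -0.09.

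**Figure D1:**
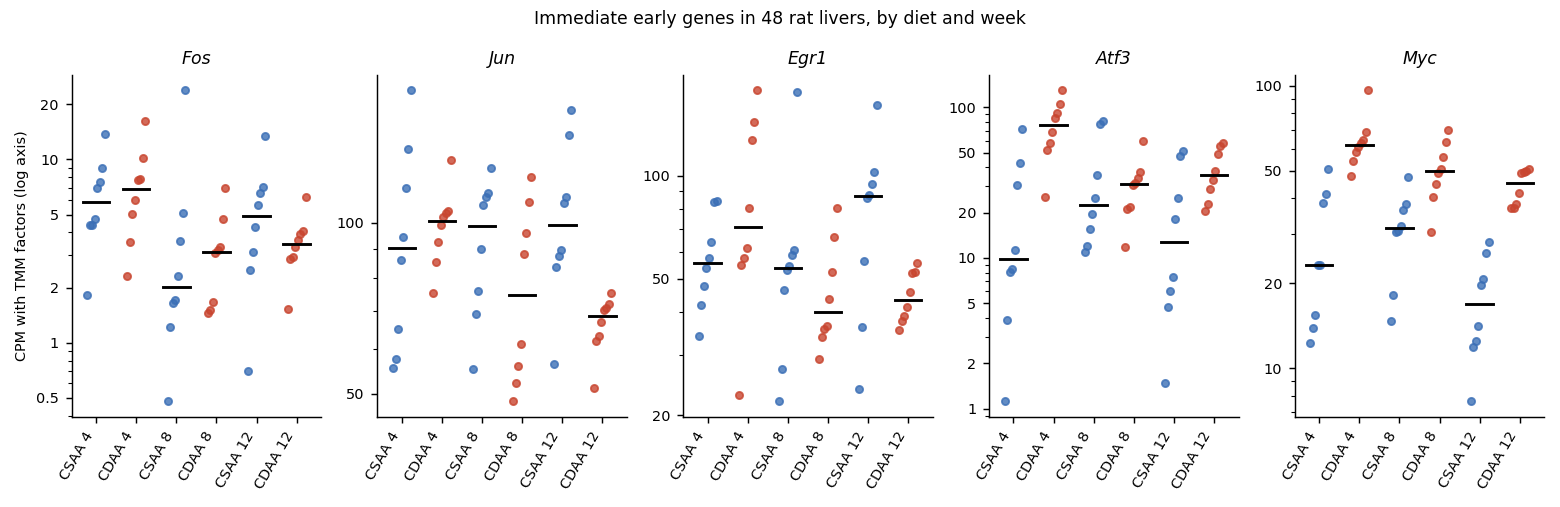
Level of each immediate early gene in each of the 48 livers, as CPM with TMM factors on a log axis, by diet (CSAA in blue, CDAA in red) and week. Each point is an animal, ordered by value within its group, and black lines are group medians. Myc on CDAA lies above every CSAA animal at week 12, while the other genes overlap between the diets at every week.

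Myc encodes a basic helix-loop-helix factor that drives growth and biosynthesis genes. At week 4 its level in CPM with TMM factors ran from 12.3 to 50.6 with a median of 23.3 in 8 CSAA livers, and from 47.8 to 96.7 with a median of 61.7 in 8 CDAA livers. Of the 8 CDAA animals, 7 lay above every CSAA animal, and the group overlapped with CSAA only through animal 303. Myc was higher on CDAA by 1.24 on the log2 scale (SE 0.24, edgeR adjusted p = 1.80e-05), a 2.36-fold higher level. The log2 fold change was 1.31 without animals 303, 504, 908 and 1102.

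At week 8 Myc ran from 14.8 to 47.6 CPM (median 31.3) on CSAA and from 30.4 to 69.9 CPM (median 49.9) on CDAA. The groups overlapped, with 5 CDAA animals above all CSAA animals. The log2 fold change of 0.70 (SE 0.24, edgeR adjusted p = 0.0074) met the p threshold but not the fold threshold. When libraries were scaled by their size alone it was 1.29 and passed, on a scale where the median of all genes was itself shifted by 0.65.

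At week 12 Myc ran from 7.65 to 28.0 CPM (median 16.9) on CSAA and from 36.9 to 50.7 CPM (median 45.5) on CDAA. These groups did not overlap. Across all tested genes the animals of the diets did not overlap, in either direction, for 13.3% (week 4), 43.0% (week 8) and 43.5% (week 12) of genes, and among the 5 members this held for 0, 0 and 1. Myc was higher on CDAA by 1.33 on the log2 scale (SE 0.24, edgeR adjusted p = 3.99e-06), or 2.51-fold, and lay between 1.29 and 2.23 in 12 alternative fits. It was 1.57 without animals 303, 504, 908 and 1102, and 1.29 without 1106, 1107 and 1108. In each diet the Myc median was lowest at week 12.

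Atf3 encodes a stress-induced basic leucine zipper factor of the ATF/CREB family. At week 4 its CPM ran from 1.12 in animal 102 to 71.5 in animal 106 on CSAA, with a median of 9.90, and from 25.5 to 130 with a median of 76.7 on CDAA. All 8 CDAA animals lay above the CSAA median, 5 CSAA animals lay below every CDAA animal, and the groups overlapped. Atf3 was higher on CDAA by 1.80 on the log2 scale (SE 0.55, edgeR adjusted p = 0.00383), a 3.49-fold higher level with a 95% interval of 1.63 to 7.49. Some other fits gave larger values, at 2.69 in limma-voom, 2.62 with quality weights and 2.94 on log2(RPKM + 0.1). The median of all genes was itself 0.37 on that RPKM scale. DESeq2 gave 1.77 and the fit with RLE factors gave 1.79, close to the main value. The call was kept when any 1 of the 48 animals was left out (adjusted p 0.000328 to 0.00982) and was lost when the 16 animals of week 4 were fitted alone (adjusted p = 0.0107).

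At week 8 Atf3 ran from 10.9 to 81.2 CPM (median 22.3) on CSAA and from 11.8 to 59.6 CPM (median 30.8) on CDAA. The CDAA range lay inside that of CSAA. The log2 fold change of -0.16 (SE 0.53, edgeR adjusted p = 0.786) had an interval of -1.23 to 0.91, and its sign was not fixed, since it was 0.44 with library sizes alone, 0.09 in limma-voom, 0.04 with quality weights and 0.14 without animal 506.

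At week 12 Atf3 ran from 1.48 to 51.6 CPM (median 12.8) on CSAA and from 20.6 to 57.7 CPM (median 35.3) on CDAA. All 8 CDAA animals again lay above the CSAA median, and 5 CSAA animals lay below every CDAA animal. The log2 fold change was 0.91 (SE 0.54, edgeR adjusted p = 0.12) and did not pass. The value differed between fits, at 1.56 in limma-voom (adjusted p = 0.0114), 2.35 with sample quality weights (adjusted p = 0.000608) and 2.38 on log2(RPKM + 0.1) (adjusted p = 0.000335), and passed with quality weights and on RPKM, where the median of all genes was itself 0.73. The cause of these differences was not tested. The fit on library size alone also passed, at 1.70 (adjusted p = 0.00505). Without animals 303, 504, 908 and 1102 the value was 1.35 (edgeR adjusted p = 0.0323), which did not pass. In this group the mean CPM on CSAA, 20.2 ± 19.7 (SD, n = 8), lay above the median, and animals lay far on either side of the group mean of log2 CPM, by 2.12 and 2.00 above it in 906 and 908 and at -2.91 and -1.31 in 902 and 901.

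**Figure D2:**
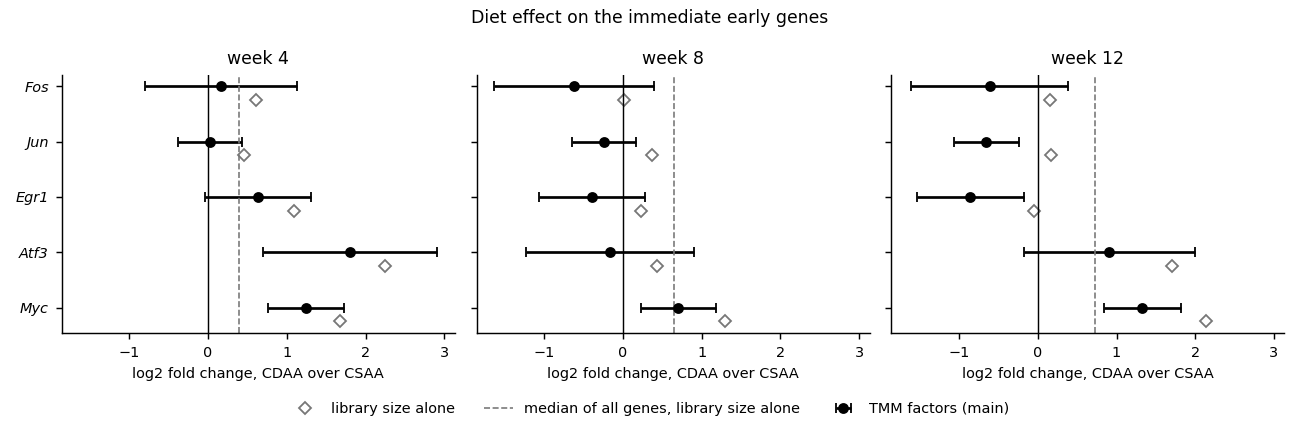
Log2 fold change of CDAA over CSAA for each gene at weeks 4, 8 and 12. Black points are edgeR estimates with TMM factors and bars are 95% intervals, open diamonds are estimates with library sizes alone, and the dashed line is the median of all tested genes on that second scale (0.39, 0.65 and 0.73). On the TMM scale, intervals of Myc lie above 0 at every week and that of Atf3 at week 4. Those of Jun and Egr1 lie below 0 at week 12.

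Fos and Jun encode the partners of the classical AP-1 dimer. At week 4 Fos ran from 1.83 to 13.7 CPM (median 5.87) on CSAA and from 2.30 to 16.1 CPM (median 6.87) on CDAA. Jun ran from 55.5 to 171 CPM (median 90.2) on CSAA and from 75.3 to 129 CPM (median 101) on CDAA. The diets overlapped for both genes, and the log2 fold changes were 0.16 for Fos (SE 0.48, interval -0.80 to 1.13, edgeR adjusted p = 0.78) and 0.02 for Jun (SE 0.20, interval -0.38 to 0.43, edgeR adjusted p = 0.926). A diet effect on Jun as large as the fold threshold lay outside this interval, and one on Fos did not. With library sizes alone Fos was 0.61 and Jun 0.45, where the median of all genes was itself 0.39. On log2(RPKM + 0.1) Jun was 0.52 (limma adjusted p = 0.0271), where that median was 0.37.

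At week 8 Fos was the most uneven member. On CSAA it ran from 0.480 CPM in animal 507 to 23.8 CPM in animal 506, a 49.7-fold range around a median of 2.01, which corresponded to 7 and 314 reads. On CDAA it ran from 1.45 to 6.94 CPM (median 3.14). The mean was higher on CSAA and the median was higher on CDAA. Its estimate of -0.62 on the log2 scale (SE 0.50, edgeR adjusted p = 0.264) turned to 0.48 without animal 506, and was 0.14 in limma-voom and 0.01 with library sizes alone. No direction can be given for Fos at week 8. Jun at week 8 ran from 55.3 to 125 CPM (median 98.8) on CSAA and from 48.5 to 121 CPM (median 74.7) on CDAA. The diets overlapped, and the difference on the log2 scale was -0.24 (SE 0.20, edgeR adjusted p = 0.276), or 0.36 with library sizes alone.

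At week 12 Fos ran from 0.700 to 13.5 CPM (median 4.93) on CSAA and from 1.52 to 6.25 CPM (median 3.47) on CDAA. Its log2 fold change was -0.61 (SE 0.49, edgeR adjusted p = 0.256), -0.35 without animals 303, 504, 908 and 1102, and 0.16 with library sizes alone. Jun ran from 56.4 to 158 CPM (median 99.0) on CSAA and from 51.2 to 75.2 CPM (median 68.6) on CDAA, where no CDAA animal reached the CSAA median. For Jun the log2 fold change was -0.65 (SE 0.20, edgeR adjusted p = 0.00367), short of the fold threshold, and it was 0.16 with library sizes alone (adjusted p = 0.465) and 0.22 on log2(RPKM + 0.1) (adjusted p = 0.326). Relative to the median of all tested genes it was -0.57 with TMM factors, -0.57 with library sizes alone and -0.51 on RPKM. On each of these scales Jun lay below the median gene, while its own sign depended on the scale.

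Egr1 encodes a zinc finger factor induced by growth and stress signals, and its promoter is the one shown above. At week 4 its CPM ran from 33.99 to 84.2 (median 55.7) on CSAA and from 22.9 in animal 303 to 178 in animal 308 (median 70.99) on CDAA. The CDAA group spanned the CSAA group on both sides, with 3 animals above it. On the log2 scale the difference was 0.63 (SE 0.33, edgeR adjusted p = 0.0927), and 1.09 with library sizes alone (adjusted p = 0.00526), which would pass. Without animals 303, 504, 908 and 1102 the difference was 0.80 (edgeR adjusted p = 0.0313), short of both thresholds.

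At week 8 Egr1 ran from 21.97 to 176 CPM (median 53.8) on CSAA, with animal 506 again highest, and from 29.1 to 80.8 CPM (median 40.1) on CDAA. Its difference was -0.39 on the log2 scale (SE 0.33, edgeR adjusted p = 0.281), 0.04 without animal 506 and 0.23 with library sizes alone. At week 12 it ran from 23.8 to 161 CPM (median 87.2) on CSAA and from 35.4 to 55.5 CPM (median 43.5) on CDAA. No CDAA animal reached the CSAA median, while the range of CSAA enclosed that of CDAA. The log2 fold change of -0.86 (SE 0.34, edgeR adjusted p = 0.0195) did not pass, was -0.05 with library sizes alone and 0.15 on log2(RPKM + 0.1), and relative to the median of all genes was -0.77, -0.78 and -0.57 on the 3 scales.

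Within a diet, the levels were compared between weeks to ask whether the members moved with time. On CSAA, 0 of 15 member comparisons passed. The background was 0.0470% of genes for week 8 against 4, 2.78% for week 12 against 8 and 2.68% for week 12 against 4. The nearest was Myc, at -0.82 from week 8 to week 12 (log2, SE 0.24, edgeR adjusted p = 0.00546), short of the fold threshold.

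On CDAA, 1 of 15 passed, where 5.02% of genes were called for week 8 against 4, 1.43% for week 12 against 8 and 10.6% for week 12 against 4. This was Egr1, which fell from week 4 to week 12 by 1.02 on the log2 scale (SE 0.34, edgeR adjusted p = 0.00828), or 2.02-fold lower. The estimate lay close to the fold threshold, and the call was lost in 11 of the 48 fits that left out 1 animal each, where it ran from -1.16 to -0.80 and the adjusted p reached 0.0358. The call was also lost in limma-voom (-0.78), DESeq2 (-0.96), with RLE factors (-0.97), with library sizes alone (-0.71), with quality weights (-0.78), on log2(RPKM + 0.1) (-0.43) and without animals 1106, 1107 and 1108 (-1.18, adjusted p = 0.014).

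No member passed between weeks 4 and 8 on CDAA. The log2 estimates for week 8 against week 4 were -1.19 for Fos (edgeR adjusted p = 0.0403), -0.33 for Jun (adjusted p = 0.178), -0.94 for Egr1 (adjusted p = 0.0177), -1.31 for Atf3 (adjusted p = 0.0371) and -0.34 for Myc (adjusted p = 0.223). All 5 estimates were below 0, and none met both thresholds. From week 8 to week 12 the estimates on CDAA lay between -0.25 for Jun and 0.30 for Atf3.

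Whether the effect of the diet itself differed between weeks was tested with interaction terms, and 0 of 15 passed, against 4.25% of genes for week 8 minus 4, 4.01% for week 12 minus 8 and 5.04% for week 12 minus 4. The nearest was Egr1, whose diet effect at week 12 was lower than at week 4 by -1.49 on the log2 scale (SE 0.47, edgeR adjusted p = 0.0124). This passed when any 1 of 8 animals was left out. The diet effect on Atf3 was lower at week 8 than at week 4 by -1.97 (SE 0.76, edgeR adjusted p = 0.0416), and among the fits that left out 1 animal it passed without 106 alone. It also passed in limma-voom, at -2.60 (adjusted p = 0.00708), and with quality weights, at -2.59 (adjusted p = 0.0015). That Atf3 passed at week 4 and not at week 8 is thus a difference that met the threshold in these alternatives and not in edgeR.

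When the 6 groups were ordered by mean CPM with TMM factors, CDAA at week 4 was highest for Fos, Egr1, Atf3 and Myc, and CSAA at week 12 was highest for Jun. The lowest groups were CDAA at week 8 for Fos, CDAA at week 12 for Jun and Egr1, and CSAA at week 12 for Atf3 and Myc. The order depended on the scale. By mean RPKM, Jun was highest in CDAA at week 4 (34.7) and lowest in CSAA at week 4 (25.4), Egr1 was lowest in CSAA at week 4 (15.1) and Fos in CSAA at week 8 (2.62). By mean log2 CPM, too, Fos was lowest in CSAA at week 8, at 1.43 against 1.55 in CDAA at week 8. Neighbours in such an order are close in mean CPM by construction, while by mean log2 CPM the order is not always the same. The mean log2 CPM of neighbours was compared only to say where the order is not resolved, which was so for all 25 pairs. The smallest two-sided exact permutation p was 0.00653, for Myc between CDAA at week 12 and CSAA at week 8, with an adjusted p of 0.163 over the 25 pairs, where 12870 splits of 16 animals allow a p of 0.000155 at the lowest.

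The members varied more between animals than the median gene did. The SD of log2 CPM within groups, pooled over the 6 groups, was 1.25 for Atf3 (rank 66 of 12756), 1.03 for Fos (rank 151), 0.71 for Egr1 (rank 724), 0.51 for Myc (rank 1976) and 0.43 for Jun (rank 2872). The median of all tested genes was 0.26. On the RPKM table the ranks were 69, 131, 391, 1301 and 2352 in the same order. Counting error at the mean read count of a group was a small part of this spread. The coefficient of variation that such a count alone would give was between 2.18% and 12.1% per group, against 11.5% to 156% between animals. It is larger for single animals with few reads.

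**Figure D3:**
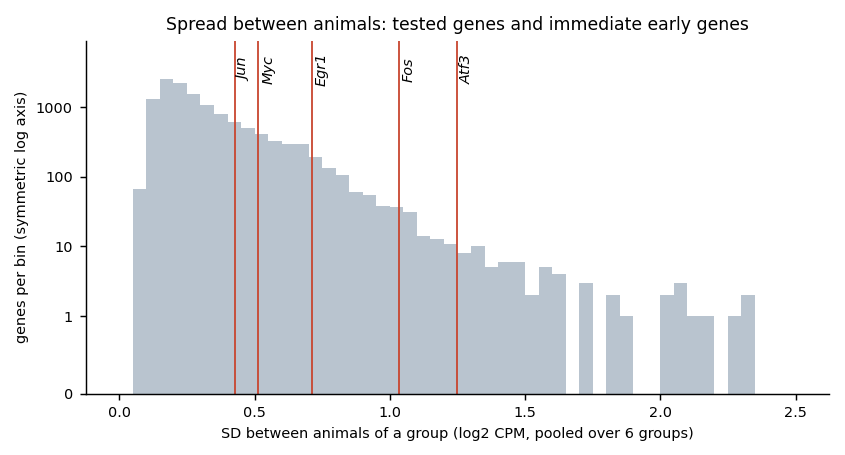
Number of tested genes by their SD of log2 CPM between animals of a group, pooled over the 6 groups, in bins of 0.05. Red lines mark the 5 immediate early genes. All lie right of the median of 0.26, with Atf3 (1.25) and Fos (1.03) in the sparse right tail. A further 3 genes with an SD of 2.5 or more lie outside the axis.

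Pooled over the weeks, the spread was larger on CSAA than on CDAA for each member and for the median gene. The SD of log2 CPM on CSAA and CDAA was 1.63 and 0.66 for Atf3, 1.26 and 0.75 for Fos, 0.77 and 0.64 for Egr1, 0.66 and 0.30 for Myc, and 0.50 and 0.34 for Jun. For the median gene it was 0.29 and 0.22. The difference in spread was not tested.

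At week 12 the CDAA livers were the most even. The SD was 0.24 for Egr1 on CDAA against 0.89 on CSAA, 0.18 against 0.47 for Jun, 0.21 against 0.63 for Myc, 0.56 against 1.22 for Fos and 0.57 against 1.75 for Atf3, while the median gene had 0.17 against 0.30. Without animals 1106, 1107 and 1108, whose libraries were alike, the SDs on CDAA were 0.14, 0.21, 0.23, 0.71 and 0.70 in this order, still under those of CSAA. In 3 cases the SD was higher on CDAA, for Egr1 at week 4 (0.95 against 0.46), for Jun at week 8 (0.52 against 0.41) and, by 0.86 against 0.85, for Fos at week 4.

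Animals that were high or low for 1 member were often so for others. Of the 48 animals, 9 had all 5 members above the mean of their group and 7 had none. Animal 506 (CSAA, week 8) was highest of its group for Fos, Jun, Egr1 and Atf3, and exceeded the group mean of log2 CPM by 3.15 for Fos, 1.76 for Egr1 and 1.63 for Atf3 but by 0.07 for Myc. Animal 902 (CSAA, week 12) was lowest for the same 4 genes, at -2.40 for Fos, -1.55 for Egr1 and -2.91 for Atf3, with Myc at 0.28. Animals 303 (CDAA, week 4) and 705 (CDAA, week 8) were each lowest for 4 members, and 703 (CDAA, week 8) was highest for 4, in these cases with Myc among them.

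**Figure D4:**
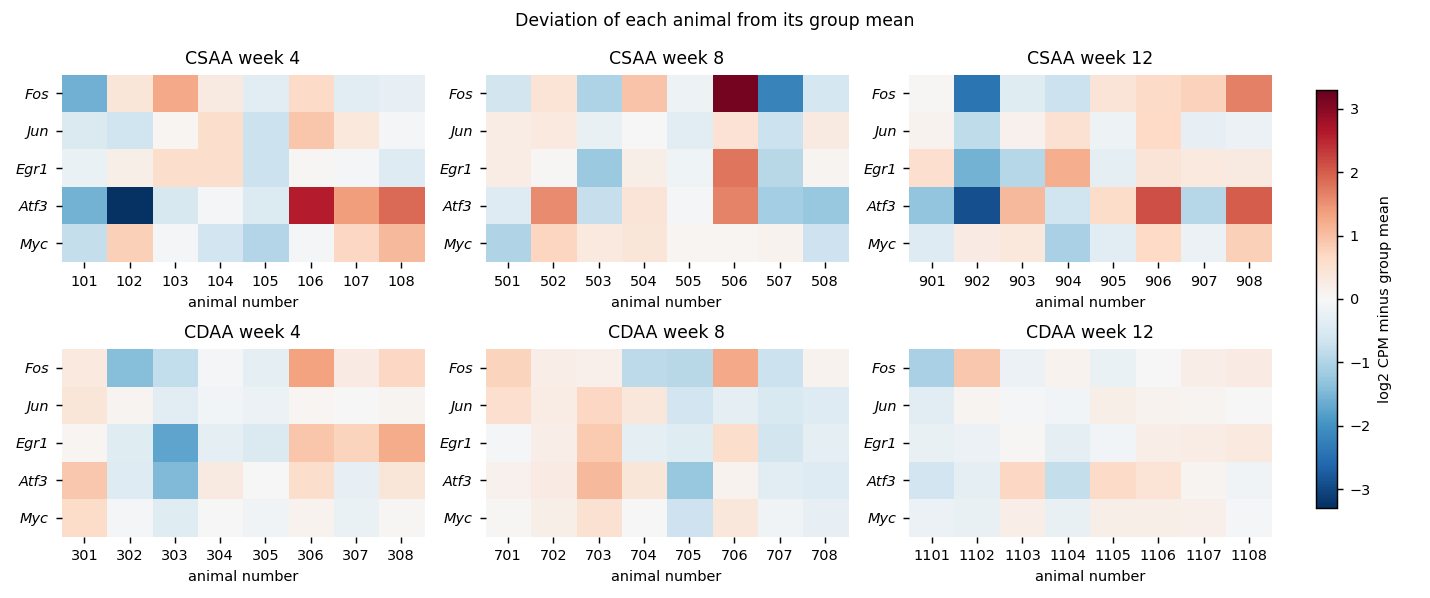
Deviation of each animal from the mean of its group in log2 CPM, for the 5 genes (rows) and 8 animals of each group (columns), red above and blue below the mean. The strongest colours are in Fos and Atf3 of the CSAA groups, with animals 506 and 902 at the extremes for Fos (3.15 and -2.40), and the CDAA group at week 12 is the palest.

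The deviations from the group means were correlated over the 48 animals, which removes the diet and week means, for the 10 pairs of members with permutation tests adjusted over the pairs. Fos and Egr1 had the closest relation, with r = 0.69 and rho = 0.67 (permutation test, adjusted p = 0.0001 for each, the smallest that these permutations give), and r was 0.57 without animals 506 and 902. Jun and Atf3 followed at r = 0.64 and rho = 0.58 (permutation test, adjusted p = 0.0002 and 0.00085), and r was 0.55 without animals 106 and 902. Jun and Egr1 were at r = 0.55 and rho = 0.52 (permutation test, adjusted p = 0.0002 and 0.00118), with r = 0.53 after the same omission. Within CSAA and CDAA, r of these 3 pairs was 0.73 and 0.66, 0.64 and 0.73, and 0.60 and 0.46.

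Fos and Atf3 were related at r = 0.51 and rho = 0.47 (permutation test, adjusted p = 0.00193 and 0.00372), with r = 0.39 without animals 506 and 902. Fos and Jun had r = 0.42 and rho = 0.33 (permutation test, adjusted p = 0.0102 and 0.0606), and r fell to 0.31 without the same animals. Egr1 and Atf3 had r = 0.34 and rho = 0.26 (permutation test, adjusted p = 0.0419 and 0.125), and r was 0.23 without animals 303 and 506. Within CSAA and CDAA, r was 0.53 and 0.44 for Fos and Atf3. It was 0.46 and 0.33 for Fos and Jun, and 0.25 and 0.64 for Egr1 and Atf3.

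Over all 48 animals together, though not on CDAA alone, Myc stood apart from the others except Atf3. Its relation with Atf3 was r = 0.44 and rho = 0.58 (permutation test, adjusted p = 0.0347 and 0.000967), and r rose to 0.70 without animals 102 and 902. With Fos it was r = 0.26 and rho = 0.28 (permutation test, adjusted p = 0.158 and 0.114), with Jun r = 0.11 and rho = 0.14 (permutation test, adjusted p = 0.62 and 0.462), and with Egr1 r = 0.00 and rho = 0.06 (permutation test, adjusted p = 0.992 and 0.723). On CDAA alone the r of Myc was 0.88 with Atf3, 0.68 with Jun, 0.53 with Egr1 and 0.41 with Fos, and on CSAA alone it was 0.35, -0.07, -0.20 and 0.22 (24 animals each). The difference between the diets was not tested.

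**Figure D5:**
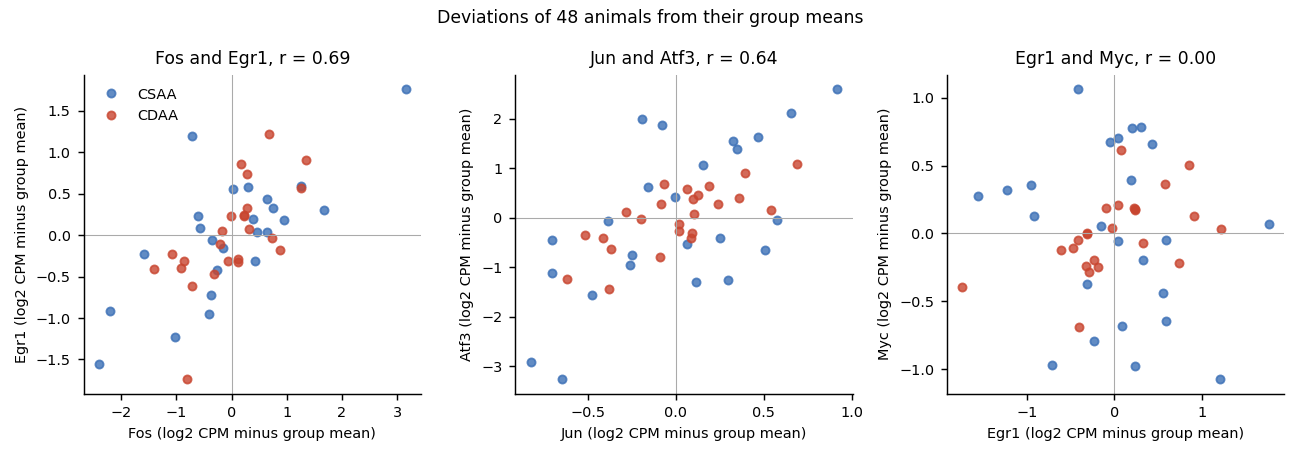
Deviation of 48 animals from their group means in log2 CPM for 3 pairs of genes, CSAA in blue and CDAA in red. Fos and Egr1 (r = 0.69) and Jun and Atf3 (r = 0.64) rise together in both diets, while Egr1 and Myc show no common slope over all animals (r = 0.00).

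Set against all other tested genes, some pairs of members ranked among the closest in pattern and others did not. By r over the 48 deviations, Egr1 was the gene 4th closest to Fos of 12755, and Fos was 2nd closest to Egr1. Atf3 ranked 6 and Egr1 ranked 11 for Jun, and Jun ranked 18 for Atf3. Atf3 ranked 50 and Jun ranked 183 for Fos, and Fos ranked 139 for Atf3. Atf3 and Egr1 were less close to each other, at ranks 951 and 973 of 12755. The member nearest to Myc was Atf3 at rank 140, followed by Fos at 1352, Jun at 3840 and Egr1 at 6271. The genes with the highest r are not named here, because the identifiers could not be paired with names.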

How the data were processed

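Liver RNA of 48 rats was analysed, grouped by the diet, week and animal in the labels. The authors aligned single-end reads to Rnor_6.0 (Ensembl) with STAR, counted them per gene with featureCounts and deposited unnormalized counts. The RPKM values were deposited by the authors too, scaled to gene length and library. FastQC 0.11.2 and Cufflinks are also named in the submitters' processing notes. The 5 genes, lists and tests were chosen with earlier results of these data known.

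Counts of 12756 genes (1 CPM or more in 5 animals of any group) were tested in 1 fit of 48 animals with edgeR 4.0.16 (R 4.3.3, TMM factors, quasi-likelihood test, Benjamini-Hochberg adjustment). The study used limma-voom, tried here as an alternative (limma 3.58.1) beside DESeq2 1.42.0, other scalings, filters, RPKM and left-out animals. Log2 CPM used a prior count of 2. The edgeR fit was tested on simulated counts. Correlations used 100000 permutations. The edgeR p-values set differences between groups against the spread between animals, with all 6 groups sharing an estimate of it. The rats were housed in pairs, and no fit held a term for cages.

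The named genes were to be the 5 members in every comparison and those of the lists. The lists fixed for the pathway, for heat shock and stress genes and for cell type markers, and the naming of genes of like pattern, could not be applied, since the RefSeq table pairs 0 of its 47357 genes with Ensembl identifiers. Depth was 13619274 to 22284359 reads per animal. The intervals given for diet comparisons were built from the SE of the edgeR fit, which takes in the spread between animals. The coefficient of variation from counting covers counting error only.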

Additional observations from a re-analysis of the deposited data

How the results depend on the processing

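No member that was called changed sign under any alternative, and leaving out each of the 48 animals changed no call of a diet comparison. The number of members changed at week 4 (2) was 1 when the 16 animals of that week were fitted alone and 3 with library sizes alone. At week 8 (0) it was 1 with library sizes alone and 1 on RPKM with a pseudocount of 0.1 or of 1. At week 12 (1) it was 2 with library sizes alone, with sample quality weights and on RPKM with either pseudocount. Library sizes alone moved the median of all genes to 0.39, 0.65 and 0.73, so the signs of Fos, Jun and Egr1 at weeks 8 and 12 depend on the scaling, except Egr1 at week 12, which turned on RPKM only. Atf3 at week 8 turned too, also in limma-voom and without animal 506, and Jun at week 4 was -0.08 with the gene length trend removed.

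The count of changes between weeks on CDAA (1) was 0 in limma-voom, DESeq2, with RLE factors, with library sizes alone and on RPKM with either pseudocount. It was 2 with the gene length trend removed, 3 with quality weights and 2 without animals 303, 504, 908 and 1102. It was 0 without animals 1106, 1107 and 1108, a fit chosen after the data were seen. Leaving out single animals gave 0 to 2. The count of differences of the diet effect (0) was 1 in limma-voom, 1 with quality weights and 0 to 1 without single animals. The cause of these changes was not tested. Among the values of single genes, 20 lost and 26 gained their call over all alternatives. A further 3534 values were counted as unchanged in their call, and these include values whose sign turned while neither fit was called. Those of correlations and spreads, which carry no call, are also among them. No animal of any of the 30 groups of values lay far from the rest by Dixon's criterion, where chance gives about 1.5. No paired analysis was possible because the animal numbers are not shared between groups. For Fos and Atf3 the spread between animals exceeded the counting error at the mean read count in every group. The effect of depth was not tested.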
